A study of Saccharomyces cerevisiae with 12 samples.

Results

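Chromosome IV carries the longest sequenced stretch of the budding yeast genome, 1531933 bp in the build sacCer3. Its interior was taken as the 1-kb rows of the deposited table whose centres lie over 30 kb from either chromosome end, which spans positions 30001 to 1502000. Of 1472 such rows, 46 were left out because a ratio was exactly 0 in at least 1 of the 8 ratio columns, and 1426 rows were analysed, out of 12165 rows in the whole table. The 46 rows form 13 runs, most of them over Ty retrotransposon genes, and the others over the sodium pump genes ENA5, ENA2 and ENA1, the hexose transporter gene HXT6 and the translation factor gene EFT2.

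The libraries hold genomic DNA of the wild-type strain w303a and of strain JG2087, which carries the eco1-W216G mutation, a single amino acid change in the acetyltransferase that modifies cohesin. Both strains were grown in YPD, arrested before S phase by the mating pheromone α-factor, and sampled 0, 20 and 40 min after its removal. Each strain and time has 2 libraries, which makes 12 in all. Each ratio column sets a 20-min or 40-min library against a 0-min library on a log2 scale, so that a stretch already copied in more cells stands higher than one copied in fewer. Within a strain and replicate, both times were set against the same 0-min library. The ratio averages over the culture, so that fewer cells having copied a locus and later copying in every cell cannot be told apart. The labels do not say whether the 2 libraries of a group came from separate cultures, so p-values measure only the spread between these libraries, which may be technical.

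Replication of a yeast chromosome starts at origins, short sequences also known as autonomously replicating sequences (ARS), which are loaded with the replicative helicase in G1 and fire at characteristic times in S phase. Forks move away from them in both directions, so that in early S phase the DNA content along a chromosome forms peaks at origins that have fired and troughs where forks have yet to arrive. ARS1, the first ARS to be isolated, lies beside TRP1, a tryptophan biosynthesis gene on the right arm of chromosome IV close to its centromere, and the surroundings of yeast centromeres are known to replicate early. Eco1 acetylates the Smc3 subunit of cohesin as forks pass, which stabilises the cohesion of sister chromatids.

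Every column was centred on the median of the 1426 rows, so each level below is a log2 ratio above or below the chromosome IV median. By a scale inferred from the ratio values, the ratio libraries held 5293237 to 10362815 mapped reads, with 449 to 863 recovered reads in the median row. Counting error alone gave an SD of 0.070 to 0.089 for a row. It was 0.031 to 0.040 for the 5-kb running mean used for peaks and 0.022 to 0.028 for a 10-kb window. The SD between replicates was larger for 10-kb windows, 0.031 to 0.071. Before centring, the interior lay below the genome median in all 8 columns, by 0.0039 and 0.011 in wild type at 20 min, 0.022 and 0.027 in wild type at 40 min, 0.046 and 0.043 in eco1 at 20 min, and 0.038 and 0.052 in eco1 at 40 min.

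The profiles of the 2 libraries of a group correlated positively in 3 of the 4 groups. Over the 147 windows of 10 kb, Pearson's r between replicates, given as a description, was 0.49 in wild type at 20 min, 0.53 in wild type at 40 min and 0.65 in eco1 at 20 min. In eco1 at 40 min it was -0.36, so these libraries opposed each other. In wild type both libraries lay on the same side of the median in 85 of the 147 windows at 20 min and in 99 at 40 min. In eco1 they did so in 104 windows at 20 min and in 69 at 40 min. Replicate 1 of eco1 at 40 min had an r of 0.54 with wild type at 40 min replicate 2, and of -0.20 with eco1 at 20 min replicate 2. Replicate 2 had an r of -0.46 with wild type at 40 min replicate 2 and of 0.64 with eco1 at 20 min replicate 1. Whether a library carries another's label was not tested, and every eco1 40-min value below is that of the library labelled so. Values that rest on the eco1 40-min libraries are therefore given for each library, and the tests at 20 min are also given without them.

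**Figure D1:**
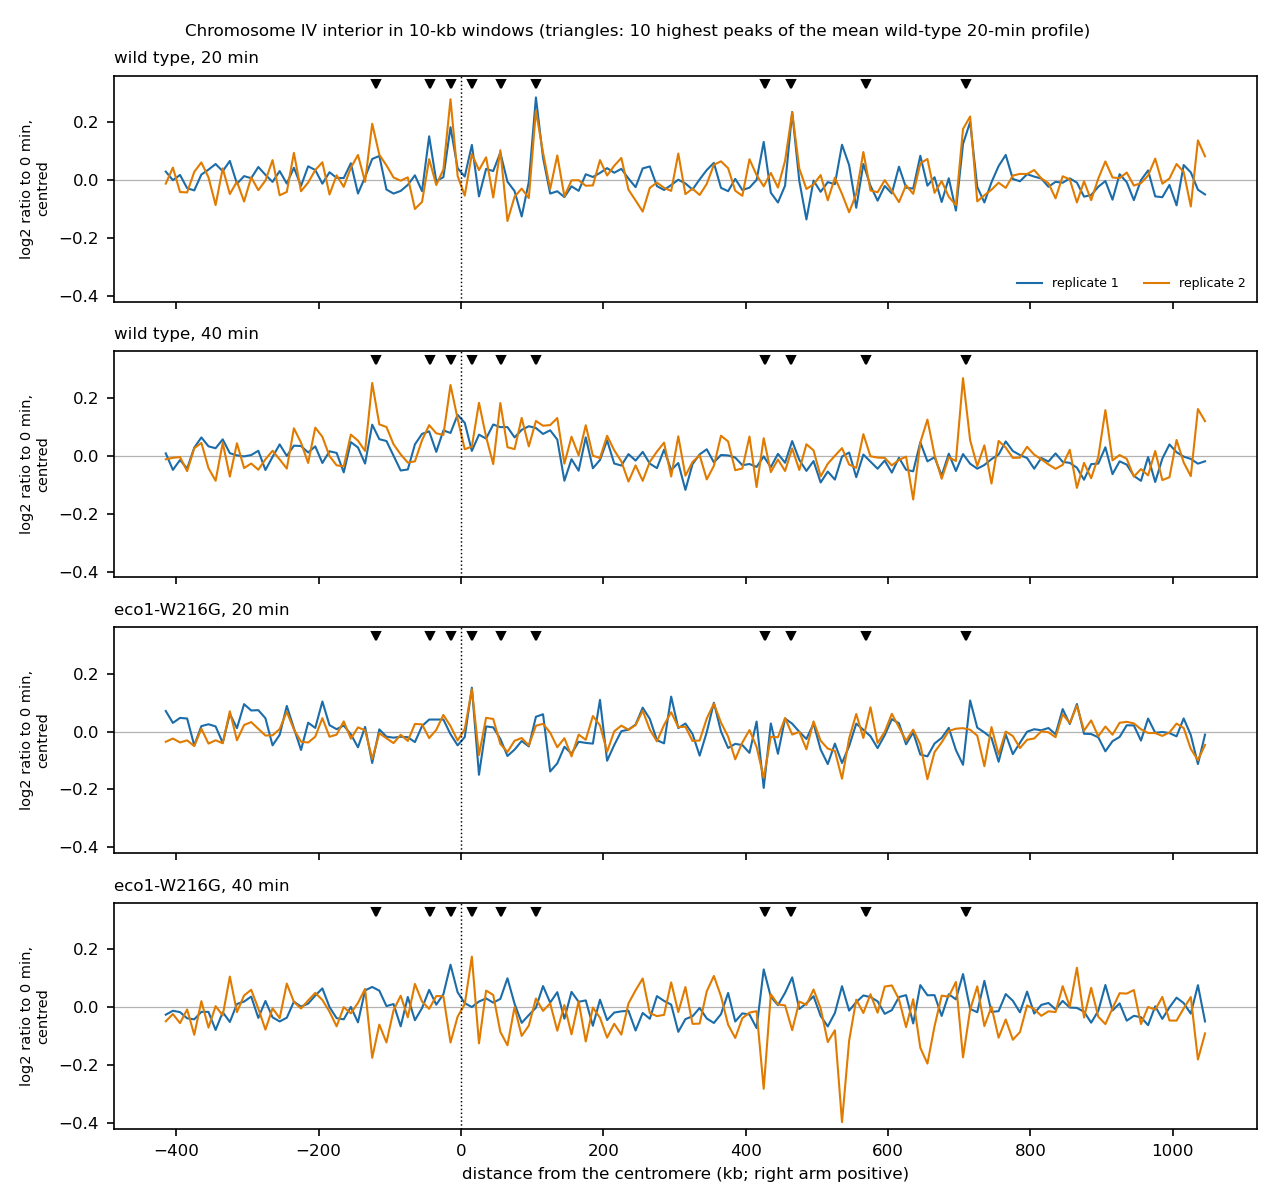
Mean centred log2 ratio to 0 min in 10-kb windows of the chromosome IV interior (vertical axis) against distance from the centromere in kb (horizontal axis), with 1 line per replicate and 1 panel per strain and time. Triangles mark the 10 highest peaks of the mean wild-type 20-min profile, and the dotted line marks the centromere. Narrow peaks stand out in wild type at 20 min, a broad raised stretch around and to the right of the centromere in wild type at 40 min, and a peak just right of the centromere in eco1 at 20 min, while the 2 eco1 40-min lines run against each other.

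The wild-type 20-min profile had a few tall peaks. The tallest, in the mean of the 2 libraries, lay at chromosome IV 554001 to 555000, 105 kb right of the centromere and nearest VMS1, whose product acts on nascent chains of stalled ribosomes. Its levels were 0.42 and 0.28 in wild type at 20 min, 0.15 and 0.13 in wild type at 40 min, 0.0022 and -0.00042 in eco1 at 20 min, and 0.0024 and -0.065 in eco1 at 40 min. Both wild-type libraries at each time stood above all 4 eco1 libraries there, and wild type was lower at 40 than at 20 min in both replicates.

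The next peak lay 14.2 kb left of the centromere at 435001 to 436000, nearest the small open reading frame YDL007C-A. Wild type was at 0.23 and 0.46 at 20 min and at 0.13 and 0.44 at 40 min. In eco1 the levels were -0.096 and -0.091 at 20 min and 0.23 and -0.31 at 40 min. The groups did not overlap at 20 min and overlapped at 40 min, when the eco1 replicates fell on opposite sides of the median.

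The peak at 913001 to 914000, nearest CRF1, a corepressor of ribosomal protein genes, stands beside the divergent pair HTA1 and HTB1, which encode histones H2A and H2B. Wild type was at 0.29 and 0.24 at 20 min, and at 0.080 and 0.026 at 40 min. The eco1 libraries were at 0.018 and -0.020 at 20 min, and at 0.14 and -0.086 at 40 min. This peak was high in wild type at 20 min in both replicates and near the median in wild type 20 min later.

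Other peaks among the 10 highest had the same order at 20 min. At the hexose transporter gene HXT6 wild type was at 0.29 and 0.34 and eco1 at -0.055 and 0.0082. Near YET3, a gene for a membrane protein of the endoplasmic reticulum, wild type was at 0.17 and 0.24 and eco1 at -0.038 and -0.011. Near RTK1, a putative protein kinase gene, wild type was at 0.20 and 0.17 and eco1 at 0.035 and -0.11. No wild-type library overlapped an eco1 library at these 3 places.

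At SUT053, an annotated noncoding RNA, wild type was at 0.13 and 0.20 and eco1 at -0.025 and -0.058. Near RNH202, which encodes a subunit of RNase H2, wild type was at 0.12 and 0.16 and eco1 at -0.10 and -0.071. The peak at the Ty gene YDR210W-B had 0.25 and 0.15 in wild type and -0.28 and -0.46 in eco1. That value rests on 2 rows beside rows left out, 1 of them with as few as 18 reads in a library, and the HXT6 peak rests on 4 rows, lies 2 kb from a row left out and shares near-identical sequence with its neighbour HXT7.

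In the tenth peak, at 465001 to 466000 near YDR010C and 3 kb from the ARS1 row, the order was turned: wild type at 20 min was at 0.15 and 0.13 and eco1 at 0.21 and 0.16. Thus both eco1 libraries lay below both wild-type libraries at 9 of the 10 peaks and above them at 1. Of all rows of the interior, 27.0% had both eco1 libraries below and 24.5% had both above at 20 min. The peaks were chosen by wild-type height, so that lower eco1 values follow in part from the choice and no test is given on these counts. The next peak by height, nearest GCV1, was at 0.11 and 0.15 in wild type at 20 min.

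Over all 36 peaks of the mean wild-type 20-min profile, eco1 was below at 28, above at 2 and overlapping at 6. The 2 peaks with eco1 above were YDR010C and YDR170W-A, the latter at 805001 to 806000 with 0.070 and 0.087 in wild type and 0.12 and 0.19 in eco1. The mean at YDR170W-A takes in a row with as few as 37 reads in a library. At 40 min eco1 was below at 12 of the 36 peaks and above at 1, against 20.4% and 17.7% of all rows.

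**Figure D2:**
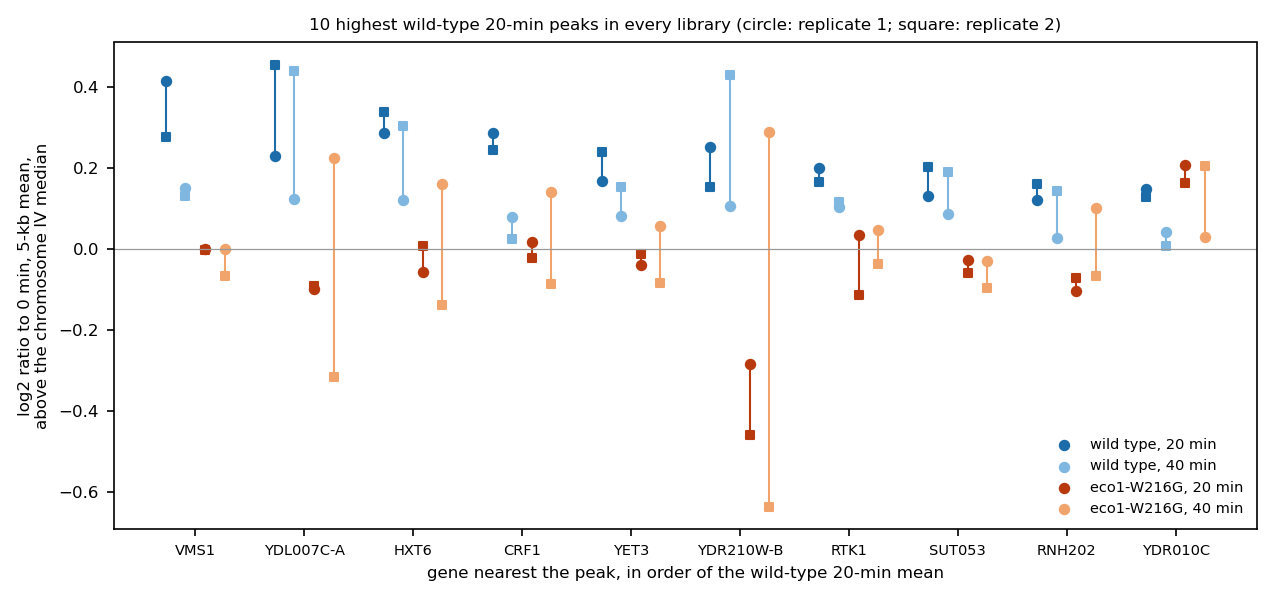
Centred log2 ratio (5-kb running mean, vertical axis) at the 10 highest wild-type 20-min peaks, named by the nearest gene (horizontal axis). Circles are replicate 1 and squares replicate 2, joined within a group; the dark blue wild-type 20-min points lie above the dark red eco1 20-min points at every peak except YDR010C, and the eco1 40-min pair runs from 0.29 to -0.64 at YDR210W-B.

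To read peaks in libraries that had not chosen them, the peaks of each library were looked up in the other 20-min libraries, which share no 0-min library with it. The 10 highest peaks of wild type at 20 min replicate 1 averaged 0.24 there, 0.20 in replicate 2, and -0.043 and -0.070 in the 2 eco1 libraries. Replicate 2 was above both eco1 libraries at 8 of these 10, against 41.6% of all rows. The 10 highest of replicate 2 averaged 0.26 there, 0.13 in replicate 1, and -0.041 and -0.053 in eco1, and replicate 1 was above both eco1 libraries at 9 of them, against 40.2% of all rows. On average the tall peaks of one wild-type library were thus seen in the other and not in the eco1 libraries at this time, although the peak near YDR010C was seen in all 4.

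Over all peaks the shared height was smaller. All 48 peaks of wild type at 20 min replicate 1 averaged 0.11 there and 0.029 in replicate 2, where 24 lay above the median. The 70 peaks of replicate 2 averaged 0.11 there and 0.013 in replicate 1, where 32 lay above the median.

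The eco1 20-min libraries had peaks of their own. The 71 peaks of replicate 1 averaged 0.089 there, 0.042 in eco1 replicate 2, and -0.0033 and -0.019 in wild type. The 10 highest averaged 0.17 there, 0.090 in eco1 replicate 2, and 0.023 and 0.0014 in wild type, with eco1 replicate 2 above both wild-type libraries at 8 of 10, against 33.7% of all rows. For the 10 highest of eco1 replicate 2 the corresponding means were 0.16, 0.098 in eco1 replicate 1, and 0.010 and -0.042 in wild type, with 9 of 10 above both, against 36.1% of all rows. The tallest 20-min peaks of each strain were therefore on average higher in the other library of that strain than in the other strain.

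The gene content of the rows moved with these patterns. Annotated genes cover 74.7% of an interior row on average. Coverage at the peaks was 69.6% and 69.9% in wild type at 20 min and 78.5% and 77.9% in eco1 at 20 min. Over rows, r between coverage and ratio was -0.086 and -0.19 in wild type at 20 min and 0.19 in both eco1 libraries at 20 min. At 40 min it was -0.21 and -0.35 in wild type, and -0.23 in replicate 1 and 0.20 in replicate 2 of eco1. With a straight line on coverage taken out of each 20-min column, the 10 highest wild-type peaks averaged 0.16 and 0.12 in the other wild-type replicate and -0.072 to -0.015 in eco1. The 10 highest eco1 peaks averaged 0.082 and 0.067 in the other eco1 replicate, against 0.011 to 0.042 in wild type. Over all peaks of wild type replicate 1, the mean in replicate 2 went from 0.029 to 0.0097. For wild type replicate 2 it went from 0.013 to 0.014, and for eco1 from 0.042 and 0.043 to 0.043 and 0.040. The part that gene content has in the peaks was not tested.

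In the 40-min libraries the 10 highest wild-type peaks averaged 0.085 and 0.065 in the other wild-type replicate, with 0.053 and -0.050 in eco1 for those of replicate 1 and 0.084 and -0.26 for those of replicate 2. The 10 highest peaks of eco1 at 40 min replicate 1 averaged 0.18 there and -0.23 in replicate 2, and those of replicate 2 averaged 0.21 there and -0.062 in replicate 1. None of those 20 sites was above both wild-type libraries in the eco1 replicate that had not chosen it, against 39.1% and 31.4% of all rows. With gene coverage taken out, 3 of the 10 highest peaks of replicate 2 were. Coverage by genes at their peaks also differed, 69.9% in replicate 1 and 78.5% in replicate 2.

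**Figure D3:**
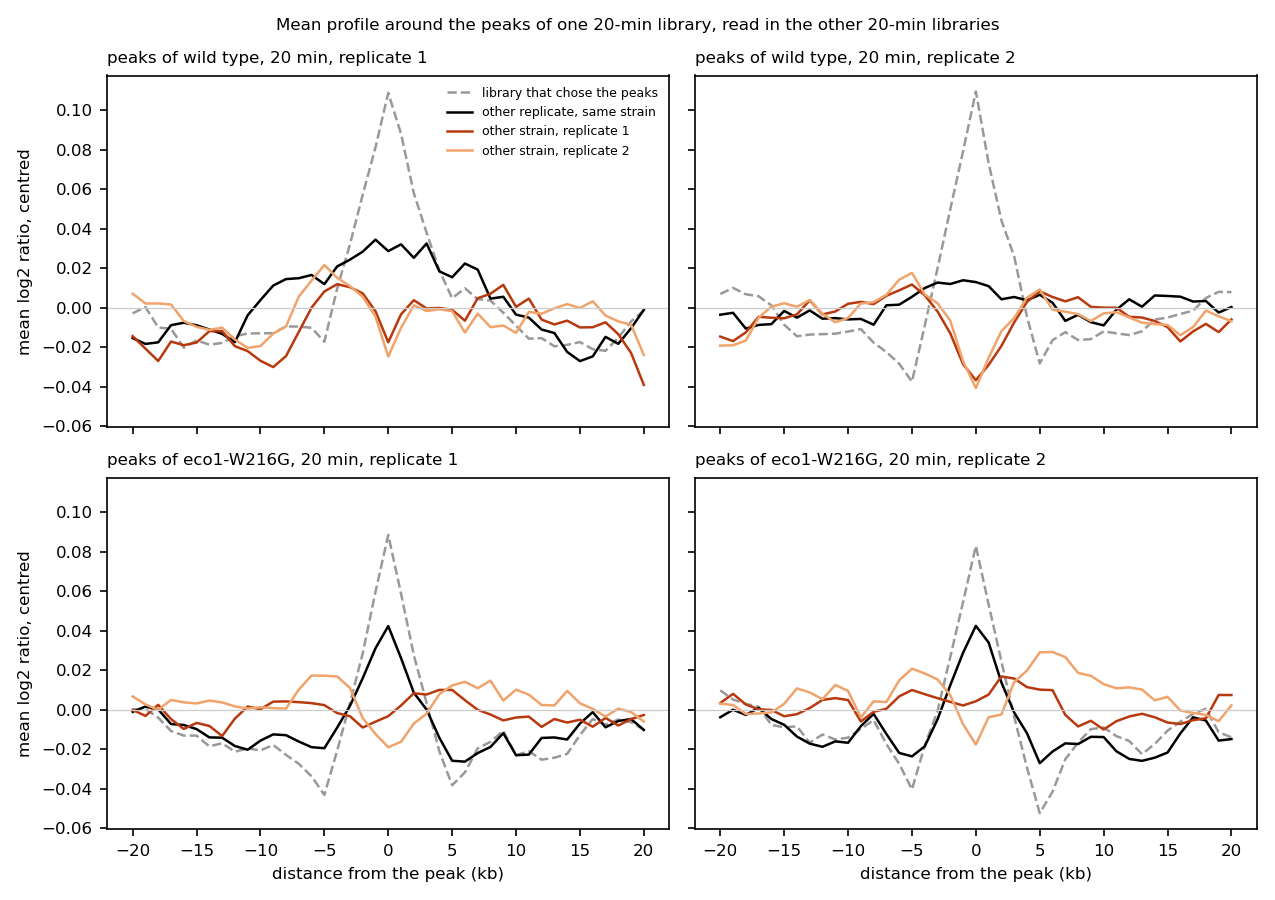
Mean centred log2 ratio (vertical axis) within 20 kb of the peaks (horizontal axis, kb from the peak) of each 20-min library, in the library that chose them (dashed grey), the other replicate of the strain (black) and the 2 libraries of the other strain (red and orange). At the peak itself the other replicate reaches 0.029 and 0.013 for wild-type peaks and 0.042 and 0.043 for eco1 peaks, while the other strain is at or below 0.0043.

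The windows of 10 kb gave a test that covers all nuclear chromosomes. Of the 147 interior windows, 2 were lower in eco1 than in wild type at 20 min by limma (Benjamini-Hochberg adjusted p below 0.05 over 1193 windows) and 0 were higher, while over all windows 1.09% were called lower and 9.39% higher. At an unadjusted p below 0.05 in limma, 10 interior windows were lower and 6 higher, against 68 and 238 of all 1193 windows. Both eco1 libraries lay below both wild-type libraries in 41 of the 147 windows (19.9% of all windows) and above them in 28 (41.4% of all windows). These shares of all windows, and those below for the ratio columns, rest on centring every column on the chromosome IV interior. Before centring, that interior lay further below the genome median in each eco1 column than in any wild-type column. The median eco1 minus wild-type difference at 20 min was 0.023 over all windows and -0.0030 over the interior windows. The part the centring has in these shares was not tested.

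One of the 2 was the VMS1 window at 550001 to 560000, which also holds DBF4, the regulatory subunit of the Cdc7 kinase that fires origins. Its levels were 0.28 and 0.24 in wild type and 0.051 and 0.020 in eco1 at 20 min. The difference was -0.23 with an SE of 0.035 and an adjusted p of 0.0029 in limma, and this window was also above the chromosome IV median in wild type at 20 min (0.26 ± 0.032 SD, n = 2, limma adjusted p = 0.00077).

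The other was the histone window at 910001 to 920000, which holds HTA1 and HTB1. Wild type was at 0.23 in both libraries and eco1 at 0.027 and -0.010. The difference was -0.23 with an SE of 0.053 and a limma adjusted p of 0.025. The call was lost in 8 of 23 other settings, among them the omission of any single 20-min library, with adjusted p-values up to 0.18 in limma. Both wild-type libraries were far above both eco1 libraries, and by 40 min wild type was down to 0.050 and 0.025.

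With both eco1 40-min libraries left out of the fit, which removes their spread from the shared error, 10 interior windows were lower in eco1 at 20 min and 4 were higher, while 4.61% of all windows were called lower and 14.6% higher. The lower ones included VMS1, HTB1, HXT3, PST2 and the window of the tRNA gene YNCD0005C, and the higher ones were BPL1, MSW1, MKC7 and ARO80. At HXT3, a hexose transporter gene, wild type was at 0.20 and 0.22 and eco1 at 0.11 and 0.0062, with a difference of -0.15, an SE of 0.042 and a limma adjusted p of 0.036 in that fit and 0.053 with all 8 columns. At MSW1, the mitochondrial tryptophanyl-tRNA synthetase gene, wild type was at -0.096 and -0.049 and eco1 at 0.027 and 0.060, with a difference of 0.12, an SE of 0.032 and a limma adjusted p of 0.037 in that fit and 0.062 with all 8 columns.

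Levels were also tested against the chromosome IV median in each strain and time. In wild type at 20 min 4 interior windows were above it and 0 below, against 7.46% above and 0.419% below among all windows. These were VMS1, HTB1, YNCD0005C at 430001 to 440000 (0.18 and 0.28, adjusted p 0.040 in limma) and HXT3 at 1160001 to 1170000 (0.20 and 0.22, adjusted p 0.0027 in limma). In wild type at 40 min 4 were above and 0 below, against 7.88% and 0.168% of all windows (8.05% in either direction). They were VMS1, ENA1, MCD1 at 440001 to 450000, a window that holds the centromere row, and PST2, a flavodoxin-like protein gene at 500001 to 510000. MCD1 was at 0.14 and 0.13 and PST2 at 0.099 and 0.18, each with a limma adjusted p of 0.038. Each of these calls was kept in 10 of 22 other settings, and the ENA1 level in 6 of 22.

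In eco1 at 20 min 2 windows were above and 1 below, against 18.9% and 0.754% of all windows (19.7% in either direction). These shares, too, are relative to the chromosome IV median, and the median over all windows was 0.028 here. With every column centred on the median of all nuclear rows instead, 0 interior windows were above and 18 below, and with each chromosome on its own median 0 passed, so the direction of these counts turns with the centring. The shares of all windows under these other centrings are not given. The highest was the GAL3 window at 460001 to 470000, which holds the ARS1 row, with 0.15 in both eco1 libraries and an adjusted p of 0.017 in limma, a call kept in 16 of 22 other settings. The other was MKC7, a cell surface aspartyl protease gene, at 740001 to 750000 (0.12 and 0.067, adjusted p 0.038 in limma), and the low one was TVP15, a Golgi membrane protein gene, at 650001 to 660000 (-0.10 and -0.070, adjusted p 0.040 in limma). These last calls were kept in 11 and 9 of 22 other settings. In eco1 at 40 min 0 windows passed in either direction and 7 had an unadjusted p below 0.05 in limma, with 14.8% of all windows called above and 0.251% below. At that unadjusted p, 301 of all 1193 windows passed. With both eco1 40-min libraries left out, the windows above and below numbered 9 and 1 in wild type at 20 min (9.81% and 1.34% of all windows), 12 and 3 in wild type at 40 min (18.3% and 1.59%), and 6 and 8 in eco1 at 20 min (24.7% and 3.02%).

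At 9 of the 10 highest wild-type 20-min peaks both wild-type replicates were lower at 40 than at 20 min, and at YDR210W-B replicate 2 was higher. The peaks were chosen by their 20-min height, so that lower 40-min values follow in part from the choice, and no window passed the test of the change. Of the interior windows, 0 passed in wild type (10 at an unadjusted p below 0.05 in limma), 0 in eco1 (0 at that p) and 0 for the difference between the strains' changes (4 at that p), and 0% of all windows passed in each. At that unadjusted p, 171, 29 and 27 of all 1193 windows passed, in the same order. With the eco1 40-min libraries left out, the HTB1 window was lower at 40 than at 20 min in wild type (limma adjusted p 0.037) and 0 others passed, against 0.671% lower and 0.335% higher among all windows.

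The largest wild-type falls were at the tall 20-min peaks. At HXT3 the levels went from 0.20 and 0.22 to -0.028 and 0.053, at HTB1 from 0.23 in both libraries to 0.050 and 0.025, and at VMS1 from 0.28 and 0.24 to 0.095 and 0.12. These differences were -0.20, -0.20 and -0.15, each with a limma adjusted p of 0.15. They are differences relative to the chromosome IV median, so a locus falls when the rest of the chromosome gains more.

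The 5 windows named for the largest wild-type rises all lay between 390001 and 580000, a stretch that also holds windows that were lower at 40 min in both replicates, such as GAL3, YNCD0005C and VMS1. At ENA1 the levels went from -0.13 and -0.030 to 0.089 and 0.13, and at RAD61, a cohesin release factor gene, from -0.057 and 0.034 to 0.072 and 0.18. Both were higher at 40 min in each replicate. At MCD1, which encodes the kleisin subunit of cohesin, the levels went from 0.040 and 0.013 to 0.14 and 0.13. At DBP10, a helicase gene of ribosome assembly at 390001 to 400000, they went from -0.039 and -0.076 to 0.075 and 0.053. At YDR061W at 570001 to 580000 they went from -0.047 and -0.032 to 0.088 and 0.11. Each was higher at 40 min in both replicates, with differences of 0.11, 0.12 and 0.14 and limma adjusted p-values of 0.23, 0.15 and 0.21 in this order.

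Over longer stretches, the 4 neighbouring 50-kb segments from 400001 to 600000 stood at 0.081, 0.074, 0.090 and 0.045 in wild type at 40 min replicate 1 and at 0.13, 0.054, 0.077 and 0.086 in replicate 2. In wild type at 20 min the third of them, from 500001 to 550000, was at 0.0026 and -0.028, and at 40 min it had the highest value of the 29 segments in replicate 1. In eco1 at 20 min the same 4 segments were at 0.013, 0.0030, -0.051 and -0.038 in replicate 1 and at 0.0056, 0.033, -0.044 and -0.0069 in replicate 2.

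Within 50 kb of the centromere the mean of the 100 rows was 0.052 and 0.047 in wild type at 20 min, 0.077 and 0.090 in wild type at 40 min, 0.0082 and 0.019 in eco1 at 20 min, and 0.040 and 0.0081 in eco1 at 40 min. Wild type was above eco1 at both times with no overlap. At the row between RMD1 and the neutral trehalase gene NTH1, where the centromere lies, the 5-kb mean was -0.078 and -0.066 in wild type at 20 min and 0.10 and 0.086 at 40 min, and -0.066 and 0.020 in eco1 at 20 min and -0.0072 and 0.015 at 40 min. At 20 min the lower eco1 value and the higher wild-type value were level within counting error, and at 40 min both eco1 values were below both wild-type values (two-sided exact permutation p = 0.33 at each time, the smallest that 2 libraries against 2 allow).

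At 40 min 1 interior window was called lower in eco1 than in wild type and 0 were called higher. Over all windows 0.671% were called lower and 5.11% higher (5.78% in either direction). At an unadjusted p below 0.05 in limma, 12 interior windows were lower and 6 higher, against 78 and 170 of all 1193 windows. The window called was that of ENA1, a sodium pump gene, at 530001 to 540000. Wild type was at 0.089 and 0.13 and eco1 at -0.053 and -0.099, a difference of -0.19 with an SE of 0.041 and a limma adjusted p of 0.029. Only 3 of its rows were kept, so this call rests on little sequence, and it was lost in 10 of 22 other settings, with adjusted p-values up to 0.26 in limma. The rows left out there are 529001 to 536000 and 537001 to 538000, while ENA1 spans 535192 to 538467. The kept rows thus lie partly within ENA1, 1 of the near-identical ENA genes. The number of interior windows called at 40 min changed when either eco1 40-min library was left out. The shares of all windows called in those fits are not given.

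At ARS1 the libraries of the 2 strains overlapped at both times. The 5-kb mean at the row 462001 to 463000, which holds the end of TRP1, was 0.15 and 0.10 in wild type at 20 min and 0.13 and 0.21 in eco1 at 20 min. At 40 min it was 0.018 and 0.040 in wild type and -0.027 and 0.21 in eco1. The eco1 minus wild-type difference was 0.047 at 20 min (two-sided exact permutation p = 0.67) and 0.064 at 40 min (p = 1, same exact test). Leaving out 1 library at a time moved the first between 0.0069 and 0.088 and the second between -0.056 and 0.18.

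Ranked within its own library, the ARS1 row stood higher than 96.8% and 88.0% of interior rows in wild type at 20 min and 97.5% and 99.9% in eco1 at 20 min. A peak lay at the row or within 3 kb of it in all 4 of these libraries. Wild type at 40 min had it at 64.7% and 66.1%, with a peak 9 kb away in replicate 2 and none within 10 kb in replicate 1, and eco1 at 40 min had it at 28.3% in replicate 1 and 99.6% in replicate 2. ARS1 was thus one of several tall places in wild type at 20 min, and in eco1 at 20 min the peaks beside it were the tallest of the whole interior, 0.21 in each library.

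**Figure D4:**
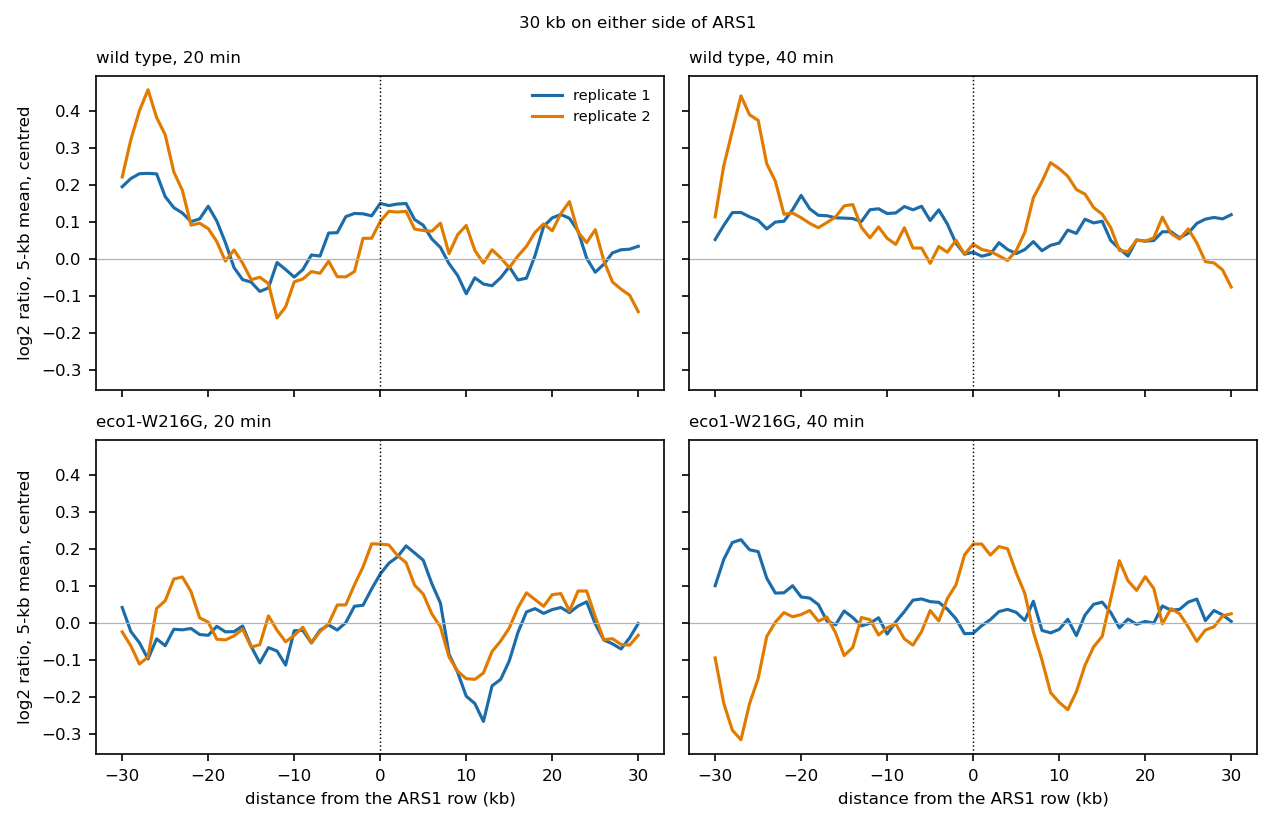
Centred log2 ratio (5-kb running mean, vertical axis) within 30 kb of the ARS1 row (horizontal axis, kb; dotted line at 0), with 1 line per replicate and 1 panel per strain and time. In both strains at 20 min the 2 lines rise to a peak at or within 3 kb of ARS1; the tall wild-type peak near the left edge is the one nearest YDL007C-A, where the eco1 20-min lines lie near or below 0.

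Peaks and troughs were taken from the same smoothed curve in each of the 8 profiles. Peaks, taken as local maxima of the 5-kb mean that stand 0.1 or more above their surroundings, numbered 48 and 70 in wild type at 20 min, 54 and 83 in wild type at 40 min, 71 and 70 in eco1 at 20 min, and 56 and 93 in eco1 at 40 min. Their median spacing was 27 and 20 kb, 25 and 15.5 kb, 19.5 and 18 kb, and 24 and 15 kb in the same order. Numbers overlapped between the strains at both times, and spacing overlapped at 40 min. Eco1 minus wild type was 11.5 peaks at 20 min (two-sided exact permutation p = 0.67) and 6 at 40 min (p = 0.67, exact), and -4.8 kb and -0.75 kb for the spacing (p = 0.33 and 0.67, exact).

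The number of peaks was highest in a shallow library and lowest in a deep one. The 2 libraries with the fewest reads per row, 449 and 468, had 93 and 70 peaks, and the 2 with the most, 863 and 839, had 56 and 48. Libraries of nearly equal depth also differed, with 71 and 70 peaks in eco1 at 20 min at 620.5 and 668 reads and 54 in wild type at 40 min replicate 1 at 676.5 reads. The part that counting error has in the numbers was not tested. In the mean of 2 libraries the peaks numbered 36 in wild type at 20 min, 60 at 40 min, 68 in eco1 at 20 min and 43 at 40 min, with median spacings of 38, 20, 20 and 27.5 kb.

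**Figure D5:**
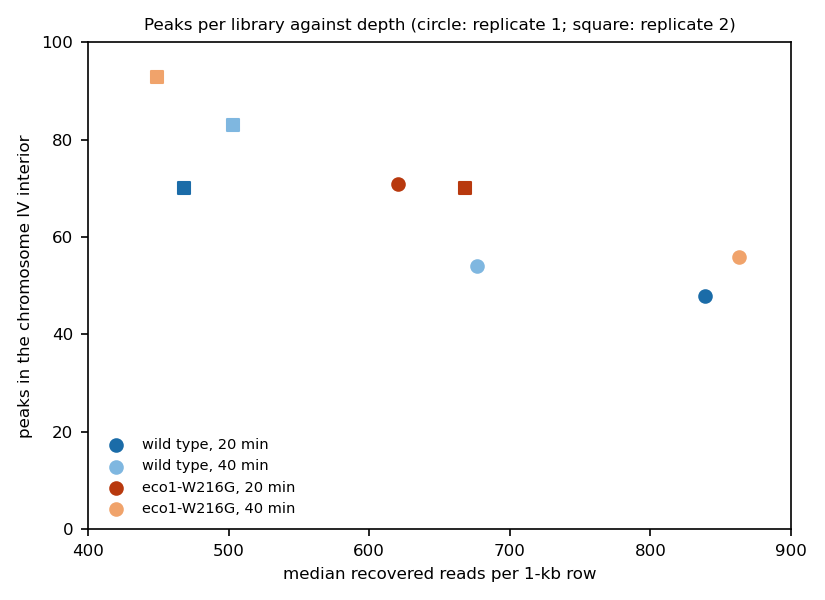
Number of peaks in the chromosome IV interior (vertical axis, from 0) against the median recovered reads per 1-kb row (horizontal axis), 1 point per library, coloured by strain and time, with circles for replicate 1 and squares for replicate 2. The libraries with 839 and 863 reads per row have 48 and 56 peaks, and those with 449, 468 and 503 have 93, 70 and 83.

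Within 10 kb, 39 peaks of the wild-type 20-min libraries were matched one to one, which is 81.2% of the 48 in replicate 1 and 55.7% of the 70 in replicate 2. The matched numbers were 50 in wild type at 40 min, 56 in eco1 at 20 min and 47 in eco1 at 40 min. Since 60.9% and 84.4% of all rows lie within 10 kb of a peak of wild type at 20 min replicate 1 and replicate 2, the match of 93.8% of replicate 1 peaks to any peak of replicate 2, and of 64.3% in the other direction, is to be read against those shares. In eco1 at 40 min the match to any peak was below the share of rows in both directions. It was 92.9% of replicate 1 peaks against 94.3% of rows, and 67.7% of replicate 2 peaks against 70.1%. In the other groups the match was above the share of rows in both directions.

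Troughs numbered 49 and 70 in wild type at 20 min, 54 and 84 at 40 min, 71 and 70 in eco1 at 20 min, and 56 and 93 at 40 min. Median spacing was 26 and 18 kb, 26 and 17 kb, 18 kb in both, and 24 and 15 kb. Eco1 minus wild type was 11 troughs at 20 min and 5.5 at 40 min (two-sided exact permutation p = 0.67 for both). Since troughs come from the same curves and prominence rule as peaks, these numbers largely repeat the peak numbers and are no separate result.

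The longest distance between neighbouring peaks ran from 36 kb in eco1 at 40 min replicate 2 to 102 kb in wild type at 20 min replicate 1, where no peak was found between VMS1 and ARX1. In the mean wild-type 20-min profile it was 83 kb, from the HXT6 peak to that nearest ATO3.

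The deepest trough of the mean wild-type 20-min profile, at 1146001 to 1147000 near MRPS28, a mitochondrial ribosomal protein gene, lay 12 kb left of the HXT6 peak. Wild type was at -0.15 and -0.14 there at 20 min and eco1 at -0.065 and 0.021. Near SBE2, a cell wall gene on the other side of that peak, wild type was at -0.11 and -0.15 and eco1 at 0.035 and -0.047. The HXT6 peak of wild type thus stood between 2 troughs, both of them shallower in eco1.

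At MSW1 wild type was at -0.14 and -0.12 and eco1 at 0.12 and 0.15, the widest gap of the 10 deepest troughs. Around MBP1, which encodes the DNA-binding subunit of a G1/S transcription factor, wild type was at -0.060 and -0.16 and eco1 at 0.027 and -0.027. At IPT1, a sphingolipid synthesis gene, wild type was at -0.088 and -0.12 and eco1 at 0.0044 and 0.058. Eco1 was above wild type without overlap at all 3 of them.

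Of the 10 deepest wild-type troughs, eco1 was above wild type without overlap at 7, and the libraries overlapped at ADR1, BSC1 and the Ty gene YDR034C-C. Over all 37 troughs it was above at 24 and below at 1, against 24.5% and 27.0% of all rows. At 40 min it was above at 5 and below at 1 of the 10, and above at 16 and below at 3 of the 37, against 17.7% and 20.4% of all rows. As for the peaks, wild-type values chose these places, so no test is given.

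The spread of the profiles was lower in both eco1 libraries at 20 min and overlapped at 40 min. The SD over windows was 0.061 and 0.069 in wild type at 20 min, 0.049 and 0.072 in wild type at 40 min, 0.057 and 0.047 in eco1 at 20 min and 0.044 and 0.076 in eco1 at 40 min. Eco1 minus wild type was -0.013 at 20 min (two-sided exact permutation p = 0.33) and -0.00053 at 40 min (p = 1, exact).

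Gene groups on chromosome IV were read through their windows. The core histone pair shares the window that was lower in eco1 at 20 min. Of 7 replication genes (CDC7, DBF4, POL3, CDC9, DPB4, PSF1 and SLD5) only DBF4, in the VMS1 window, lay in a window that was lower, and 0 lay in one that was higher, beside 1.09% of all windows called lower and 9.39% called higher, with a median difference of 0.027 over their 7 windows. CDC7, the kinase that Dbf4 activates, was at 0.0091 and 0.036 in wild type and 0.041 and 0.057 in eco1 at 20 min, a difference of 0.027 with a limma adjusted p of 0.66.

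Windows of the cohesin genes MCD1, RAD61, SCC2 and PDS1 were called in neither direction at 20 or 40 min, with a median eco1 minus wild-type difference of -0.052 and -0.077, beside -0.0030 and -0.0064 over all 147 interior windows. RAD61 was at 0.072 and 0.18 in wild type and at 0.020 and -0.12 in eco1 at 40 min, a difference of -0.18 with a limma adjusted p of 0.11. The 28 tRNA genes lie in 26 windows and the 19 ribosomal protein genes in 17, and 0 of these windows were called at either time, beside 2 of the 147 interior windows at 20 min and 1 at 40 min, with medians of -0.020 and -0.029 at 20 min. For the 3 hexose transporter genes the median difference over 2 windows was -0.18 at 20 min with 0 called, and for the 3 sodium pump genes it was 0.026 at 20 min and -0.11 at 40 min, with the ENA1 window called.

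Before release no interior window was called different between the strains. In the recovered reads of the 0-min libraries 0 of 147 windows were called by limma, 5 had an unadjusted p below 0.05, and differences ran from -0.10 to 0.10. Over all windows 0.168% were called. The number of peaks per 100 kb, averaged over the 8 libraries, was 4.63 in the chromosome IV interior, 4.83 on chromosome VII (two-sided exact sign-flip p = 0.15 over libraries) and 4.54 on chromosome XV (p = 0.47, same exact test). The sign-flip test treats the 8 libraries as independent, although each 20-min ratio has its denominator in common with a 40-min ratio. On chromosome XV the SD over windows was 0.62 to 0.65 in the eco1 libraries and 0.046 to 0.075 in wild type. The part this spread has in the peak number there was not tested.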

How the data were processed

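DNA libraries were made with Nextera XT, and CASAVA 1.8.2, Bowtie and sacCer3 are named in the submitters' processing notes without roles. The deposited ratio columns are in log2 units per row of 1000 bp. Their log base, pseudocount (1 RPM) and denominators were settled from the values, since the headers do not name them: a single 0-min read number per row fits both columns of a strain and replicate, taken as that strain's and replicate's 0-min library. The deposited smooth columns, treated as a score, were not used. Reads of all 1426 rows were recovered with 1 solution each. Rows were averaged in 10-kb windows with at least 3 rows and fitted in limma 3.58.1 (R 4.3.3, 4 groups of 2 columns, no covariate, 4 residual and 5.6 prior degrees of freedom), with Benjamini-Hochberg adjustment over 1193 windows and a threshold of 0.05. Peaks and troughs were extremes of a 5-kb mean, of prominence 0.1 or more (scipy find_peaks). Peaks and windows take the nearest gene's name (RefSeq R64). Named were the 10 highest peaks and deepest troughs of the mean wild-type 20-min profile, the windows past the threshold or, failing 5, the largest differences, at most 1 per 30 kb, ARS1, the centromere, the longest peak distance and lists of genes. MSW1, BPL1, MKC7 and ARO80 at 20 min, YDR170W-A, the segments and the extremes beside rows left out were chosen after their values were seen. Members and lists were chosen with earlier results of these data known. Alternatives are in the closing section. Annotated origins and genome sequence were not used here.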

Additional observations from a re-analysis of the deposited data

Results flagged for a closer look

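The named peaks and troughs, ARS1, the centromere and the windows past the threshold were searched for opposite moves of the strains. At 5 of these places both wild-type replicates moved one way from 20 to 40 min and both eco1 replicates the other way. At the peak nearest RTK1 the mean change was -0.072 in wild type and 0.045 in eco1, and at the peak nearest RNH202 it was -0.056 and 0.11. At the trough nearest MSW1 it was 0.061 in wild type and -0.075 in eco1, and at the trough nearest DBP10 it was 0.13 and -0.052. The difference between the strains was not tested at these 4 places, which were chosen by wild-type values at 20 min. For the window of ENA1 the change was 0.19 in wild type and -0.048 in eco1, and the limma test of the difference of these changes gave -0.24 with an unadjusted p of 0.0023 and an adjusted p of 0.997 over all windows. All 5 use the eco1 40-min libraries, whose profiles oppose each other. At the peaks and troughs, wild-type moves towards the median follow in part from the choice. The share of all rows or windows with such opposite moves is not given. Whether the 5 places are more than that share would give was not tested.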

How the results depend on the processing

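Peaks narrower than 5 kb, differences of a few hundredths in single rows and changes in rows left out are beyond this depth. The calls depend on the shared error and on the centring. For eco1 against wild type at 20 min, 2 windows became 4 with 5-kb windows (2 higher, 2 lower), 1 with 20-kb windows, 4 with centring on the median of all nuclear rows, and 1 each with every chromosome on its own median, without chromosomes I, III, V and IX, and at an adjusted p under 0.01. At 40 min, 1 became 0 with 5-kb windows, with own medians, without those chromosomes and under 0.01, and 2 with the genome median and with a filter on the median absolute deviation. In settings chosen after seeing the data, recovered reads without division by 0 min gave 6 at 20 min (2 higher, 4 lower) and 2 at 40 min, and leaving out both eco1 40-min libraries gave 14 at 20 min and 1 for wild type from 20 to 40 min. Windows off the median in wild type at 20 min (4) became 8 with 5-kb windows and 10 without both eco1 40-min libraries. Those in wild type at 40 min (4) became 0 with 5-kb windows, with the genome median, own medians, equal SDs, an adjusted p under 0.01 and gene coverage taken out, 10 with 20-kb windows (9 higher, 1 lower) and 15 without both eco1 40-min libraries. Those in eco1 at 20 min (3) became 6 with 5-kb windows, 1 with 20-kb windows, 18, all lower, with the genome median, 0 with own medians, without those chromosomes and under 0.01, 9 with equal SDs (5 higher, 4 lower) and 14 without both eco1 40-min libraries. Those in eco1 at 40 min (0) became 10, all lower, with the genome median, and 1 with 20-kb windows, equal SDs, the deviation filter, no filter on ratios of 0, an interior limit of 50 kb and gene coverage taken out.

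A random replicate block of strain and replicate (correlation 0.253) left every count of windows as it was. With the replicate number as a fixed block the comparisons of strains kept 2 and 1 windows, while wild type at 40 min went to 0 and eco1 at 20 min to 1. Replicate differences at 20 and 40 min, which share a 0-min library, correlated at 0.59 in wild type and -0.025 in eco1 over 147 windows. The shared library ties the columns of a strain and replicate, which the random block takes into account, and for wild type at 40 against 20 min it gave 0 windows, with 15 at an unadjusted p below 0.05 in limma. Between the strains the numbers share no library and were not taken to pair the samples.

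Leaving out 1 library at a time gave 1 to 14 windows for eco1 against wild type at 20 min, 0 to 23 at 40 min, 0 to 1 for wild type from 20 to 40 min, and 1 to 10, 0 to 15, 0 to 14 and 0 to 13 off the median in wild type at 20 and 40 min and in eco1 at 20 and 40 min. These ranges count interior windows only, and the shares of all windows called in the same fits are not given. A library left alone in its group was assumed to vary like the others. The level at ARS1 ranged from 0.10 to 0.15 and 0.018 to 0.040 in wild type, from 0.13 to 0.21 and -0.027 to 0.21 in eco1, and eco1 minus wild type from 0.0069 to 0.088 at 20 min and -0.056 to 0.18 at 40 min. The difference in peak number ranged from 0.5 to 22.5 at 20 min and -12.5 to 24.5 at 40 min, and that in profile SD from -0.018 to -0.0081 and -0.017 to 0.016. Mean peak number ranged from 64.6 to 71 with a spacing of 19.6 to 21.3 kb, and troughs from 64.9 to 71.1 with 19.4 to 21 kb. Matched peaks exceeded the share of rows near a peak by 4.09 to 7.85 percentage points, wild-type 20-min peaks averaged -0.039 to -0.021 in eco1, and eco1 was below wild type at 9 to 10 of the named peaks and above it at 7 to 9 of the named troughs.

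Peak counts follow the smoothing and the prominence. The mean number of 68.1 per library became 115.9 with a 3-kb mean, 33.5 with 9 kb, 108.9 at a prominence of 0.05 and 43 at 0.15, with spacings of 11.8, 40.8, 12.2 and 32.4 kb in place of 20.5 kb. Troughs (68.4) became 116.1, 33.6, 108.8 and 43, with spacings of 11.6, 37.9, 12.4 and 31 kb in place of 20.2 kb. Eco1 minus wild type in peak number at 40 min turned from 6 to -4.5 at a prominence of 0.05. The match above background of 5.42 percentage points became 1.12 with 3 kb, 0.47 at 0.05 and 8.1 within 5 kb. The height of wild-type 20-min peaks in the other replicate, 0.021, became 0.054 with 9 kb and 0.052 at 0.15, and in eco1 it went from -0.030 to -0.045 at 0.15. The VMS1 difference at 20 min passed in 23 of 23 settings, HTB1 in 15 of 23 and the ENA1 difference at 40 min in 12 of 22, with highest adjusted p-values of 0.046, 0.18 and 0.26 in limma. Among the level calls, the number of settings passed out of 22 varied widely: ENA1 in 6, TVP15 in 9, MCD1 and PST2 in 10, MKC7 in 11, YNCD0005C in 14, GAL3 in 16, HTB1 in 20, HXT3 in 21 and VMS1 at 20 min in 22. The causes of these changes were not tested.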

Other observations

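In 7 of the 8 libraries either the tallest peak or the deepest trough of the interior lay 1 kb from a row left out, where fewer rows enter the 5-kb mean. The tallest peak did so in 2 libraries and the deepest trough in 5. The deepest of all, -0.64 in eco1 at 40 min replicate 2, lay at the Ty gene YDR210W-B, where replicate 1 of the same group had its tallest peak at 0.29, and eco1 at 20 min replicate 2 had its deepest trough there too, at -0.46. At the Ty gene YDR034C-D wild type at 40 min had its tallest peak in replicate 1, 0.35, and its deepest trough in replicate 2, -0.26. Neighbouring Ty sequence is repeated in the genome, so that its reads cannot be placed on 1 copy, and the part this has in these extremes was not tested.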
